A study of Mus musculus with 6 samples.

Results

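Myc and the factors that build ribosomes were examined in colorectal tumors that differ in Trp53. The set held 40 genes chosen by name, 5 of the Myc network and 35 factors of ribosome biogenesis, among the 54167 genes of the deposited table. All 40 were present under their symbols and all 40 passed the expression filter described below, so none was lost. RNA was sequenced from 6 tumors of C57BL/6J mice, 3 from Trp53fl/fl mice, which carry loxP-flanked Trp53 alleles and no Cre, and 3 from VP mice, which carry the same alleles and Pvillin-Cre. Mice of both genotypes were given 10 mg/kg azoxymethane (AOM), a colon carcinogen, at 8 weeks of age and then 3 cycles of 7 days of 2.5% dextran sulfate sodium (DSS), which injures the colon lining, and the tumors were taken on day 98. Because the villin promoter is active in intestinal epithelium, other cells of a VP tumor keep Trp53, and RNA of whole tumor tissue mixes both. In such tissue, fewer cells of one type and less RNA per cell of that type cannot be told apart.

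Myc is a transcription factor that binds DNA together with Max at the E-box CACGTG, while Mxd proteins compete for Max and repress the same sites. Ribosomes are assembled in the nucleolus, where RNA polymerase I transcribes a long precursor rRNA, small nucleolar ribonucleoproteins (snoRNPs) modify it, and separate sets of factors mature the small and the large subunit. Genes of all these steps are known Myc targets, proliferating colon epithelium uses them heavily, and p53 is activated when ribosome assembly fails, through ribosomal proteins that bind Mdm2.

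The E-box was looked for in the RefSeq promoter windows of the members, 300 bases in build GRCm38.p6 that run from 250 bases before the transcription start to 50 bases after it. A window was given for 35 of the 40 members, and not for Bop1, Fbl, Myc, Npm1 and Rrs1. CACGTG, which reads the same on both strands, was found for 11 of the 35 members (31.4%). The share was 8.09% of 27025 genes with a window and 11.3% of the 10961 tested genes with a window. A gene was counted if any of its windows held the motif, and the 27025 genes had 32851 windows. In the 250 bases before the start alone the motif was in 3 of 35 members (8.57%) and in 9.53% of the tested genes. The motif's first base lay 2 to 40 bases after the start in 7 of the 11 members and before it in the other 4. The related hexamer CACGCG, searched on both strands a hexamer that cannot share a base with the E-box, was in 10 of 35 members (28.6%) and in 19% of the tested genes. A match is a sequence description and no evidence of binding. The stretches below are shown because they carry every E-box found in the members' windows, 30 bases each, written 5′ to 3′ on the strand of the gene with the E-box in capitals, and Rrn3, which recruits RNA polymerase I to its promoter, holds 2 of the 12.

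Mxd4, chr5:34187912-34187941, minus strand: gggctgggccacCACGTGctgttgctaagc
Max, chr12:76962234-76962263, minus strand: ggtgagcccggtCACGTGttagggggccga
Rrn3, chr16:13780472-13780501, plus strand: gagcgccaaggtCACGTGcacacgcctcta
Rrn3, chr16:13780639-13780668, plus strand: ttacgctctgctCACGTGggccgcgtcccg
Mybbp1a, chr11:72441347-72441376, plus strand: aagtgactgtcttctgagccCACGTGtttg
Utp4, chr8:106893643-106893672, plus strand: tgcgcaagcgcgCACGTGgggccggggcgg
Utp20, chr10:88826765-88826794, minus strand: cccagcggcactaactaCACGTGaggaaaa
Wdr43, chr17:71616220-71616249, plus strand: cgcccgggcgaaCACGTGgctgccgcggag
Ltv1, chr10:13193092-13193121, minus strand: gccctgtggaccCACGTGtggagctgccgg
Tsr1, chr11:74898092-74898121, plus strand: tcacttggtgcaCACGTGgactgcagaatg
Pes1, chr11:3963965-3963994, plus strand: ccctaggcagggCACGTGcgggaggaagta
Nop2, chr6:125131811-125131840, plus strand: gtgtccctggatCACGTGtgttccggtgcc

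The tumors were compared on TPM, a measure of transcript abundance per unit of transcript length with a common total for every tumor, so that levels can also be set side by side between genes. TPM keep no read number, and the depth of each tumor is unknown. Fold changes are differences of log2(TPM + 1), VP minus Trp53fl/fl, a scale that understates changes of low genes, and were tested with limma and adjusted by Benjamini-Hochberg across the 15117 genes that reached 1 TPM in 3 or more tumors. Trp53 itself had a log2 fold change of -1.87, on TPM of 124.94, 99.30 and 147.45 in Trp53fl/fl and 38.45, 32.79 and 27.83 in VP tumors (SE 0.18, limma adjusted p = 0.0207). Leaving out Trp53fl/fl replicate 1, Trp53fl/fl replicate 3, VP replicate 1 or VP replicate 2 gave Trp53 adjusted p-values of 0.0986, 0.0553, 0.0583 and 0.0938. The 12 epithelial markers summed to 10550 to 11130 TPM in Trp53fl/fl and 11920 to 12950 TPM in VP tumors. Epithelial transcripts were thus present in every sample, and the VP sums were higher without overlap.

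None of the 40 members differed between the genotypes at an adjusted p-value under 0.05, where 25 of the 15117 genes tested (0.165%) did. The lowest adjusted p-value of a member was 0.360 (limma, Benjamini-Hochberg). By point estimate VP tumors had 17 members higher and 23 lower, and the median log2 fold change was -0.02, beside -0.07 for all genes tested. A single member, Ltv1, had an unadjusted p-value under 0.05, as had 12.5% of all genes tested, and Ltv1 was also the only member whose values did not overlap between the genotypes, against 19.3% of all genes tested. The members' fold changes ran from -0.38 to 0.26, with a median size of 0.10, beside 0.18 for all genes tested. Each member's 95% interval lay within -1 to 1 on the log2 scale, as it did for 81.8% of all genes tested, and the interval that reached farthest, that of Mycn, ended at 0.93. These bounds are on the log2(TPM + 1) scale and allow larger changes in TPM for low members such as Mycn. The members and all genes tested were not matched for level. The lowest mean was 6.44 TPM among the members and 0.545 TPM among all genes tested, and the median SE was 0.15 and 0.18.

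**Figure D1:**
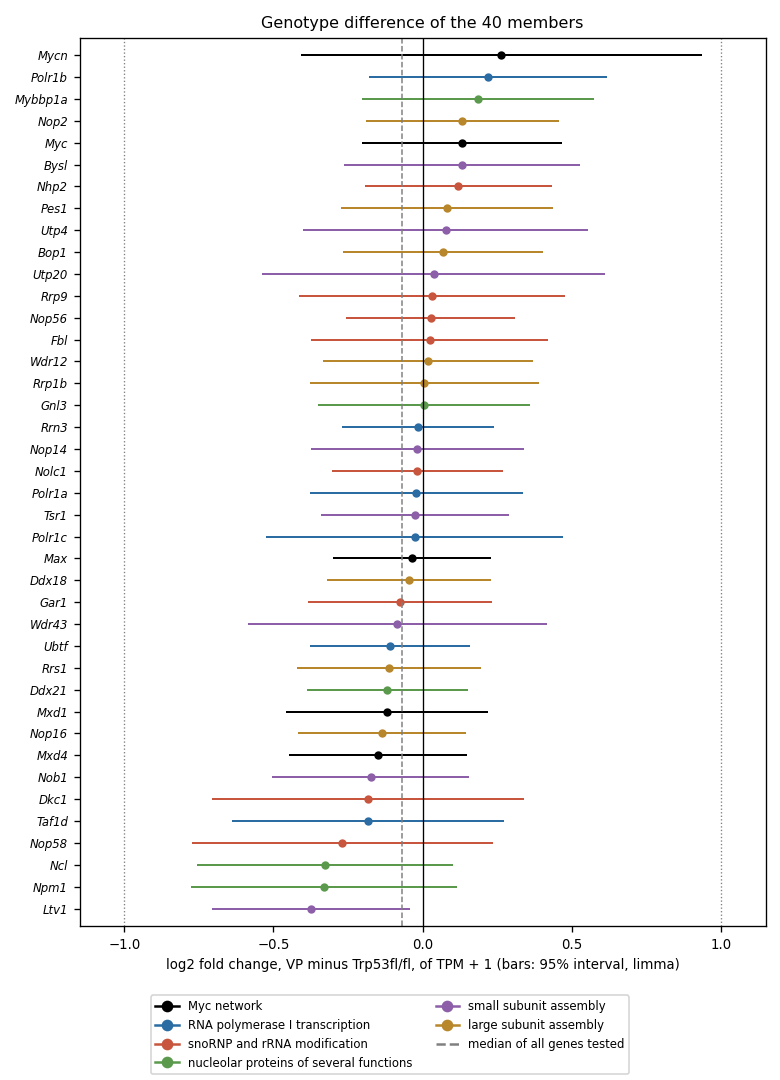
Log2 fold change of TPM + 1, VP minus Trp53fl/fl, for each of the 40 members, ordered by size and colored by role, with 95% intervals from limma. The dashed line marks the median of all genes tested (-0.07) and the dotted lines -1 and 1; of the 40 intervals only that of Ltv1 leaves out 0.

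Summed over the 40 members, the tumors held 2708, 2687 and 2492 TPM in Trp53fl/fl replicates 1, 2 and 3 and 2347, 2619 and 2416 TPM in VP replicates 1, 2 and 3. These are 0.249% to 0.271% of all TPM in Trp53fl/fl and 0.235% to 0.262% in VP tumors, and the genotypes overlapped. Member means over the 6 tumors spanned from 6.44 TPM for Mycn to 458 TPM for Npm1.

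Within the Myc network no gene separated the genotypes. Myc (ENSMUSG00000022346) stood at 71.87, 63.21 and 57.49 TPM in Trp53fl/fl and at 59.77, 75.00 and 77.08 TPM in VP tumors. The VP tumors held both the highest values and the second lowest, and the log2 fold change of 0.13 (SE 0.14, limma adjusted p = 0.704) was smaller than the spread within either genotype. Its 95% interval ran from -0.20 to 0.46. Mycn, the neuronal paralog, was at 5.16, 4.27 and 7.75 TPM in Trp53fl/fl and at 4.78, 9.81 and 6.88 TPM in VP tumors, with the largest point estimate of all members, 0.26 (limma adjusted p = 0.706), and overlapping values. The Myc level was 7.42 to 14.8 times that of Mycn in every tumor, so Myc was the main paralog of this pair in both genotypes.

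Max, the obligate partner, was nearly equal in the Trp53fl/fl tumors at 87.21, 87.10 and 86.50 TPM and ranged wider in the VP tumors at 95.88, 76.94 and 82.61 TPM. The log2 fold change of Max was -0.04 (limma adjusted p = 0.908), and Max exceeded Myc in all 6 tumors, by 1.03 to 1.60 times. Mxd1 and Mxd4 encode antagonists that bind Max and are known for cells leaving the cycle, and both had point estimates below 0 that did not pass the test. Mxd1 was at 65.58, 79.52 and 59.88 TPM in Trp53fl/fl and at 55.47, 69.07 and 63.32 TPM in VP tumors (log2 fold change -0.12, limma adjusted p = 0.738). Mxd4 was at 38.79, 47.93 and 41.08 TPM in Trp53fl/fl and at 35.47, 37.38 and 41.96 TPM in VP tumors (log2 fold change -0.15, limma adjusted p = 0.628). The Myc to Mxd1 ratio lay between 0.795 and 1.22 over the 6 tumors, and the 2 transcripts were thus at like levels throughout.

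**Figure D2:**
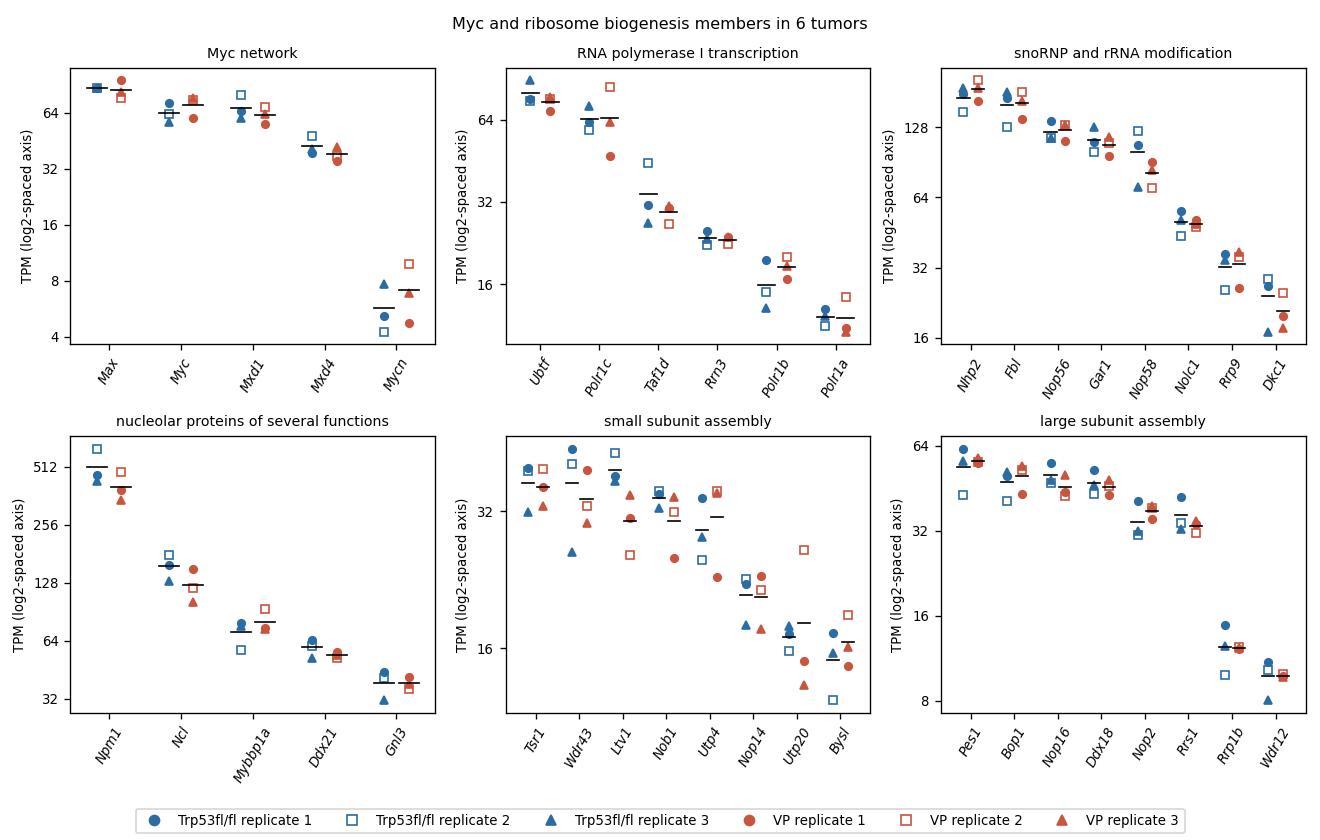
TPM of the 40 members in each tumor on a log2-spaced axis, 1 panel per role, with genes ordered by mean level; blue symbols are the 3 Trp53fl/fl tumors, red symbols the 3 VP tumors, and black lines the means of each genotype (n = 3). Values of the genotypes overlap for every gene but Ltv1, in the panel of small subunit assembly.

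The 6 genes of RNA polymerase I transcription comprise the polymerase subunits Polr1a, Polr1b and Polr1c, the architectural factor Ubtf, the initiation factor Rrn3 and Taf1d, a subunit of the promoter selectivity factor. Of these, 1 was higher and 5 were lower in VP by point estimate (median -0.02), and none passed the test. Ubtf, the highest of them, was at 76.28, 74.91 and 89.25 TPM in Trp53fl/fl and at 68.95, 76.20 and 77.16 TPM in VP tumors (log2 fold change -0.11, limma adjusted p = 0.693). Polr1b, the second largest polymerase subunit, was at 19.58, 14.96 and 13.14 TPM in Trp53fl/fl and at 16.73, 20.10 and 18.59 TPM in VP tumors, the one positive estimate of the group (0.22, limma adjusted p = 0.598). Trp53fl/fl replicate 1 was nearly as high for Polr1b as the highest VP tumor. Rrn3, whose promoter window holds 2 E-boxes, was among the steadiest members, between 22.33 and 25.12 TPM over all 6 tumors.

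The 8 genes of snoRNPs and rRNA modification split evenly, 4 higher and 4 lower (median 0.00), with no call. They comprise Fbl, the methyltransferase of box C/D particles, its partners Nop56 and Nop58, Dkc1, the pseudouridine synthase of box H/ACA particles, its partners Gar1 and Nhp2, the chaperone Nolc1, and Rrp9, a protein of the U3 particle. Nhp2, the highest, was at 177.15, 148.31 and 187.23 TPM in Trp53fl/fl and at 165.48, 203.24 and 188.02 TPM in VP tumors (log2 fold change 0.12, limma adjusted p = 0.713). Fbl averaged 159.8 ± 28.1 TPM (SD, n = 3) in Trp53fl/fl and 161.6 ± 21.8 TPM (SD, n = 3) in VP tumors. Nop58 had the lowest estimate of the group, -0.27 (limma adjusted p = 0.613), on values of 107.31, 123.26 and 70.94 TPM against 90.49, 70.14 and 84.06 TPM.

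Of the 5 nucleolar proteins with several functions, 2 were higher and 3 lower, with the lowest median of the roles, -0.12. Npm1, a histone chaperone and the most abundant member, was at 467.06, 636.61 and 431.36 TPM in Trp53fl/fl and at 390.22, 480.09 and 343.74 TPM in VP tumors (log2 fold change -0.33, SE 0.19, limma adjusted p = 0.495). Ncl, nucleolin, was at 158.32, 178.35 and 130.00 TPM in Trp53fl/fl and at 151.60, 120.37 and 101.27 TPM in VP tumors (log2 fold change -0.33, SE 0.18, limma adjusted p = 0.484). For both genes the highest tumor was Trp53fl/fl replicate 2 and the lowest VP replicate 3, with the genotypes overlapping between. Mybbp1a, a Myb-binding nucleolar protein, was at 79.10, 56.99 and 76.50 TPM in Trp53fl/fl and at 74.14, 93.32 and 73.95 TPM in VP tumors, a positive estimate of 0.19 (limma adjusted p = 0.642). The helicase Ddx21 (-0.12) and the GTPase Gnl3, also known as nucleostemin (0.01), complete the group.

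Small subunit assembly held Ltv1 (ENSMUSG00000019814), a factor that is bound to the maturing small subunit and leaves it late. Ltv1 was at 38.24, 43.08 and 37.41 TPM in Trp53fl/fl and at 30.92, 25.67 and 34.75 TPM in VP tumors. All 3 VP values lay below all 3 Trp53fl/fl values, and the log2 fold change was -0.38 (SE 0.14, limma adjusted p = 0.360). Before adjustment the p-value was 0.0303, and it stayed under 0.05 without Trp53fl/fl replicate 3 (0.0417) or VP replicate 3 (0.0161). Without Trp53fl/fl replicate 1, Trp53fl/fl replicate 2, VP replicate 1 or VP replicate 2 it was 0.0615, 0.0847, 0.0565 and 0.101. The other 7 genes of this role, Tsr1, Bysl, Nob1, Nop14, Utp4, Utp20 and Wdr43, which act from the early processome to the last cytoplasmic steps, had fold changes from -0.17 for Nob1 to 0.13 for Bysl and none at an unadjusted p-value under 0.05. Tsr1, the highest of the role, was at 39.83, 39.26 and 31.90 TPM in Trp53fl/fl and at 36.16, 39.71 and 32.95 TPM in VP tumors (log2 fold change -0.02, limma adjusted p = 0.950). Utp20 was the most variable of them, from 13.25 TPM in VP replicate 3 to 26.27 TPM in VP replicate 2, a spread within 1 genotype.

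Large subunit assembly had 5 genes higher and 3 lower in VP (median 0.01), with fold changes between -0.14 for Nop16 and 0.13 for Nop2, an rRNA methyltransferase. Pes1, Bop1 and Wdr12 form the PeBoW complex, which is needed to mature the large subunit, and their estimates were 0.08, 0.07 and 0.02. Pes1 was at 62.51, 42.91 and 56.51 TPM in Trp53fl/fl and at 55.51, 56.17 and 57.98 TPM in VP tumors (limma adjusted p = 0.830), so that the VP tumors lay close together inside the Trp53fl/fl range. The same held for Wdr12, at 9.83, 9.93 and 9.69 TPM in VP tumors within a Trp53fl/fl range of 8.04 to 10.99 TPM. Rrp1b, Rrs1 and Ddx18 had estimates of 0.01, -0.11 and -0.05.

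The 11 members with an E-box in the window had a median log2 fold change of -0.02 (range -0.38 to 0.19), and the 24 with a window and no E-box one of -0.02 (range -0.33 to 0.26).

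The product of the pathway was also present in the table. Rn18s, the small subunit rRNA, was at 6115.66, 5647.71 and 5458.48 TPM in Trp53fl/fl and at 2382.40, 2574.78 and 2660.05 TPM in VP tumors. The genotypes did not overlap, and the ratio of means, Trp53fl/fl over VP, was 2.26 (log2 fold change -1.18, SE 0.13, limma adjusted p = 0.0289). Over the 6 fits that left out a tumor the fold change stayed between -1.21 and -1.13, while the adjusted p-value rose to 0.165, 0.106, 0.0930, 0.115, 0.155 and 0.0566 without Trp53fl/fl replicates 1, 2 and 3 and VP replicates 1, 2 and 3. Poly(A) RNA was selected for the libraries, and mature rRNA has no poly(A) tail, so less rRNA in the tissue and less rRNA carried through the selection cannot be told apart. Rn18s made up 0.546% to 0.612% of all TPM in Trp53fl/fl and 0.238% to 0.266% in VP tumors. Rescaling every tumor without nuclear rRNA left the members' median at -0.02 and Ltv1 at -0.38.

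Rn7s1, the signal recognition particle RNA, which is also made without a poly(A) tail, was lower in VP by point estimate. It was at 142.65, 134.44 and 150.68 TPM in Trp53fl/fl and at 93.41, 93.85 and 78.84 TPM in VP tumors, without overlap (log2 fold change -0.68, limma adjusted p = 0.114), and Rn7s2 carried identical values, so that both count as 1 measurement. The mitochondrial rRNAs, which do carry short poly(A) tails, overlapped between the genotypes (mt-Rnr1 log2 fold change -0.35, adjusted p = 0.520; mt-Rnr2 -0.30, adjusted p = 0.585). The row of Rn5s, the 5S rRNA, was listed at 0 in all 6 tumors.

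**Figure D3:**
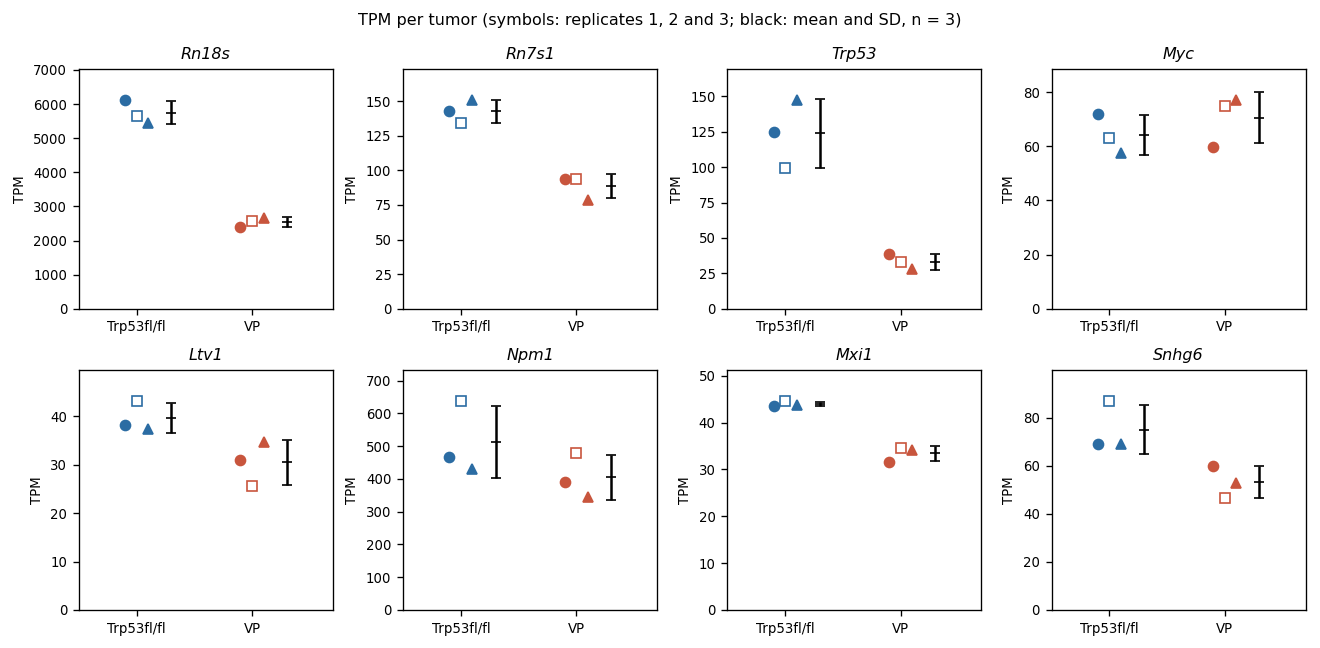
TPM in each tumor for Rn18s, Rn7s1, Trp53, Myc, Ltv1, Npm1, Mxi1 and Snhg6, on linear axes that start at 0, with replicates 1, 2 and 3 as circle, square and triangle and the mean and SD of each genotype in black (n = 3). Rn18s, Rn7s1, Trp53, Ltv1, Mxi1 and Snhg6 do not overlap between the genotypes, Myc and Npm1 do, and of the 8 genes Rn18s and Trp53 alone had an adjusted p-value under 0.05.

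The rest of the pathway was read from wider lists. The other RNA polymerase I, snoRNP, small subunit, large subunit and trimming factors, 128 tested genes together, had 54 higher and 74 lower by point estimate, a median log2 fold change of -0.02, and none at an adjusted p-value under 0.05. An unadjusted p-value under 0.05 was reached by 2 of the 128 upward and 5 downward (5.47%, beside 12.5% of all genes), and 17 of the 128 did not overlap between genotypes (13.3%, beside 19.3% of all genes). Their fold changes thus centered where those of the members did.

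By list, 1 of 10 other RNA polymerase I factors had an unadjusted p-value under 0.05, Ttf1, the transcription terminator, at 9.64, 11.44 and 11.93 TPM in Trp53fl/fl and 7.16, 8.58 and 7.43 TPM in VP tumors (log2 fold change -0.46, adjusted p = 0.317). Among 13 other snoRNP and modification factors it was Dimt1, an rRNA dimethyltransferase, at 10.75, 9.96 and 10.66 TPM against 8.13, 6.08 and 9.04 TPM (-0.40, adjusted p = 0.387). Among 39 other small subunit processome factors it was Wdr75, at 36.95, 42.13 and 42.04 TPM against 25.41, 36.92 and 30.56 TPM (-0.39, adjusted p = 0.381). In these 3 genes every VP value lay below every Trp53fl/fl value. Over the alternative settings the estimates ran from -0.62 to -0.30 for Ttf1, -0.56 to -0.17 for Dimt1 and -0.55 to -0.20 for Wdr75. Of 51 other large subunit factors, 2 were higher and 1 lower at that threshold. Eif6, which keeps the large subunit from joining too early, was at 183.92, 132.07 and 193.67 TPM in Trp53fl/fl and at 235.14, 239.95 and 233.69 TPM in VP tumors, without overlap (0.49, limma adjusted p = 0.317). Znhit3, a snoRNP assembly factor, was likewise free of overlap, at 15.32, 14.76 and 16.57 TPM against 17.87, 19.64 and 21.97 TPM (0.33, adjusted p = 0.366). Of the 15 trimming nucleases and their cofactors 1 was under 0.05 unadjusted, C1d (-0.56, adjusted p = 0.357), whose genotypes overlapped.

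The 8 other genes of the Myc, Max and Mxd network had 2 higher and 6 lower in VP (median -0.11). Mxi1, an Mxd paralog that binds Max against Myc, varied least within the genotypes, at 43.62, 44.56 and 43.84 TPM in Trp53fl/fl and at 31.53, 34.57 and 34.24 TPM in VP tumors. Its values did not overlap (log2 fold change -0.39, SE 0.10), and limma gave a p-value of 0.00527 before and 0.278 after adjustment. The remaining 7, Mycl, Mxd3, Mnt, Mga, Mlx, Mlxip and Mlxipl, overlapped between the genotypes. Mxi1 was thus 1 of 8 under 0.05 unadjusted and without overlap (12.5%, beside 12.5% and 19.3% of all genes tested).

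The transcripts that host snoRNAs in their introns had the lowest median of the pathway lists, -0.37, beside -0.07 for all genes. All 9 tested host RNAs were lower in VP by point estimate, as were 9187 of the 15117 genes tested. Of the 9, 3 had an unadjusted p-value under 0.05 (Snhg1, Snhg6 and Snhg8; 33.3%, beside 12.5% of all genes), 2 did not overlap (22.2%, beside 19.3%), and none passed the adjustment. Snhg6 was at 68.98, 86.88 and 69.30 TPM in Trp53fl/fl and at 59.91, 46.61 and 52.94 TPM in VP tumors (log2 fold change -0.49, limma adjusted p = 0.311). With tumors centred within bins of GC content the estimate of Snhg6 was -0.27.

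Of 24 Myc targets outside ribosome biogenesis, 10 were higher and 14 lower (median -0.02). Those at an unadjusted p-value under 0.05 were Ldha and Tfrc upward and Tert downward. They are 3 of 24 (12.5%, beside 12.5% of all genes tested), and 3 of the 24 did not overlap (12.5%, beside 19.3%). Ldha, lactate dehydrogenase, was at 913.61, 822.19 and 928.99 TPM in Trp53fl/fl and at 1166.77, 1192.77 and 1196.74 TPM in VP tumors (log2 fold change 0.42, limma adjusted p = 0.276). Tert, the telomerase catalytic subunit, stayed near the filter, at 2.84, 3.06 and 2.07 TPM against 1.27, 1.56 and 1.21 TPM (-0.63, adjusted p = 0.317).

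Of the genes that tie the nucleolus to p53, the ribosomal protein genes Rpl5 and Rpl11 overlapped between genotypes (log2 fold changes -0.10 and 0.16). Mdm2, the ubiquitin ligase of p53 and itself a p53 target, was at 36.71, 43.19 and 30.48 TPM in Trp53fl/fl and at 25.72, 24.25 and 26.61 TPM in VP tumors (-0.50, limma adjusted p = 0.311). Cdkn2a, whose Arf product sequesters Mdm2 in the nucleolus, was at 11.95, 31.92 and 7.10 TPM in Trp53fl/fl and at 39.84, 79.97 and 45.44 TPM in VP tumors (1.82, SE 0.51, limma adjusted p = 0.301). Both were free of overlap (2 of the 4 genes listed, 50%, beside 19.3% of all genes tested), and neither passed the adjustment. With array quality weights Cdkn2a did (log2 fold change 2.10, limma adjusted p = 0.0404). That fit gave Trp53fl/fl replicate 1 a weight of 7.29, and 27.9% of all genes had an unadjusted p-value under 0.05 in it. TPM per gene do not show which Cdkn2a product was made.

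**Figure D4:**
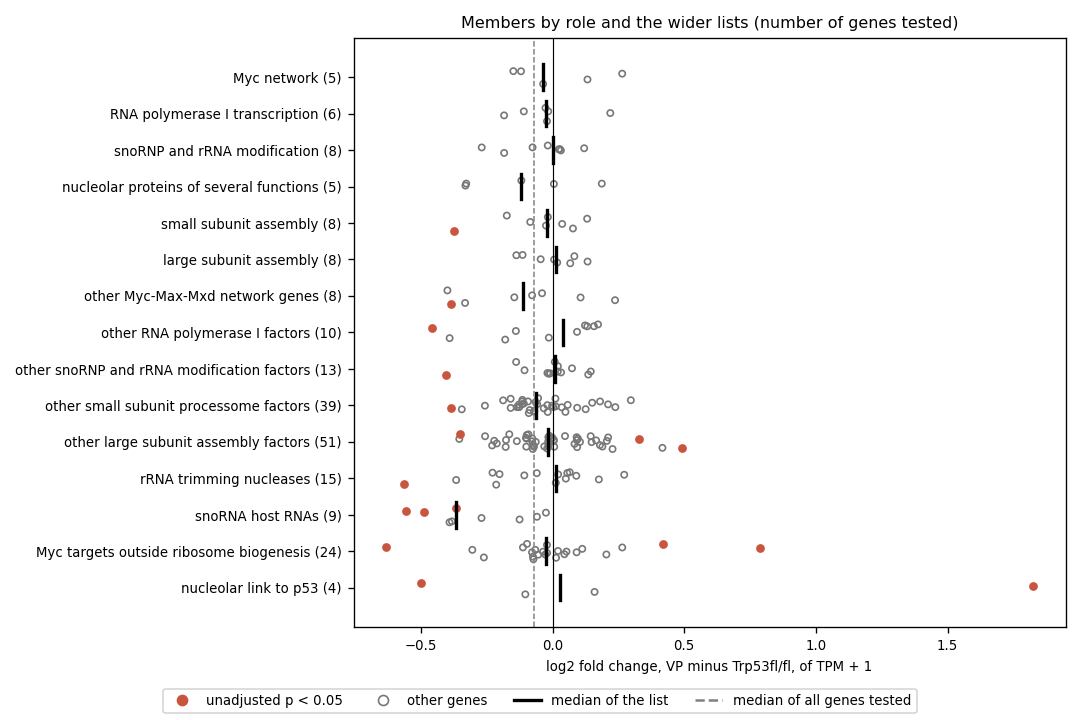
Log2 fold changes, VP minus Trp53fl/fl, of the members by role (top 6 lines) and of the wider lists (lower 9 lines), with 1 point per gene, filled where the unadjusted p-value was under 0.05, the median of each list as a thick bar and the median of all genes tested as a dashed line. The host RNAs of snoRNAs lie to the left of 0 (median -0.37), and the other medians lie between -0.12 and 0.04.

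Marker genes of other cell types were read beside these values. Of the 15117 genes tested, 5930 were higher and 9187 lower in VP by point estimate. An unadjusted p-value under 0.05 was reached by 12.5% of them, and 19.3% did not overlap. Neutrophil markers were higher in VP tumors for 10 of 10 genes, 9 at an unadjusted p-value under 0.05 and 1, Ngp, after adjustment, and summed to 455.6 to 1076 TPM against 1569 to 2636 TPM. Camp, a neutrophil granule gene, was listed at 0 in all 3 Trp53fl/fl tumors. Epithelial markers were higher for 10 of 12 genes (3 unadjusted), macrophage markers for 5 of 7 (1 unadjusted, 448.4 to 483.3 against 467.8 to 575.1 TPM), endothelial markers for 5 of 6 (1 unadjusted, 75.5 to 92.2 against 90.0 to 98.7 TPM) and smooth muscle markers for 6 of 6 (none unadjusted, 487.8 to 809.3 against 415.2 to 1347 TPM). T cell markers were lower for 5 of 5 tested (19.4 to 24.9 against 10.7 to 23.9 TPM), B and plasma cell markers higher for 3 of 4 tested (429.6 to 843.1 against 397.9 to 893.6 TPM), and fibroblast markers lower for 4 of 6, 2 of them unadjusted (815.4 to 905.9 against 680.4 to 1015 TPM). Proliferation markers, which the members accompany in dividing cells, were lower in VP for 7 of 8 genes, with 3 free of overlap and 1, Mki67, at an unadjusted p-value under 0.05 (598.5 to 735.0 against 502.8 to 654.0 TPM). The part of these differences in the members' values was not tested. With tumors centred on the mean of the epithelial markers, the median of all genes was at -0.23 and that of the members at -0.18, and Ltv1, Ncl and Npm1 had unadjusted p-values under 0.05, at fold changes of -0.54, -0.49 and -0.49, with adjusted p-values of 0.157 to 0.170. These are 7.5% of the members, where 21.6% of all genes had an unadjusted p-value under 0.05 in the same fit.

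Tumors of the same genotype also differed from each other in the members. In Trp53fl/fl replicate 1, 22 of the 40 members were at their highest of the 3 tumors and 1 at its lowest, where 23.7% and 25.5% of all genes tested were. In Trp53fl/fl replicate 2 the counts were 10 highest and 21 lowest, beside 38.34% and 39.31% of all genes tested. In replicate 3 they were 8 and 18, beside 37.97% and 35.21%. VP replicate 1 was the highest for 8 and the lowest for 20 members, beside 34.81% and 34.45% of all genes tested. VP replicates 2 and 3 each had 16 highest and 10 lowest. The shares of all genes were 33.16% and 29.7% in VP replicate 2 and 32.03% and 35.85% in VP replicate 3. The median member of Trp53fl/fl replicate 1 stood 0.18 above the mean of the other 2 Trp53fl/fl tumors on the log2 scale. That of VP replicate 1 stood 0.14 below the mean of the other 2 VP tumors. Without Trp53fl/fl replicate 1 the members' median fold change was 0.03 and no member had an unadjusted p-value under 0.05.

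The differences of Trp53fl/fl replicates 2 and 3 and of VP replicate 1 ran with the base composition of the transcripts, and that of Trp53fl/fl replicate 1 did not. The GC content of the members' transcripts ran from 40.4% to 59.8% with a median of 50.6%. Across the 40 members, the difference of Trp53fl/fl replicate 2 from the other 2 tumors of its genotype had a Pearson correlation of -0.74 with GC content, that of replicate 3 one of 0.74, and that of VP replicate 1 one of -0.61. Over the 14731 genes tested with a GC value these were -0.40, 0.38 and -0.10. In Trp53fl/fl replicate 1 and VP replicates 2 and 3 the members' correlations were 0.02, 0.26 and 0.44. Genes of a tumor share its library and are not independent replicates, and the 3 differences of a genotype sum to 0 for each gene, so that, with replicate 1 near 0, the opposite signs of Trp53fl/fl replicates 2 and 3 are a single observation. These are descriptions.

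In Trp53fl/fl replicate 2 the 20 members of lower GC content had a median difference of 0.13 and the 20 of higher GC content one of -0.23, and in replicate 3 the medians were -0.28 and 0.07. For VP minus Trp53fl/fl the correlation over the members was 0.51, beside 0.19 over all genes. The members with the lowest fold changes, Ltv1, Npm1 and Ncl, have GC contents of 45.6%, 42.4% and 42.8%, all in the lower part of the range. With each tumor centred within 20 bins of GC content their fold changes were -0.19, -0.16 and -0.15, and Ltv1 was no longer under 0.05 unadjusted, at 0.184.

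**Figure D5:**
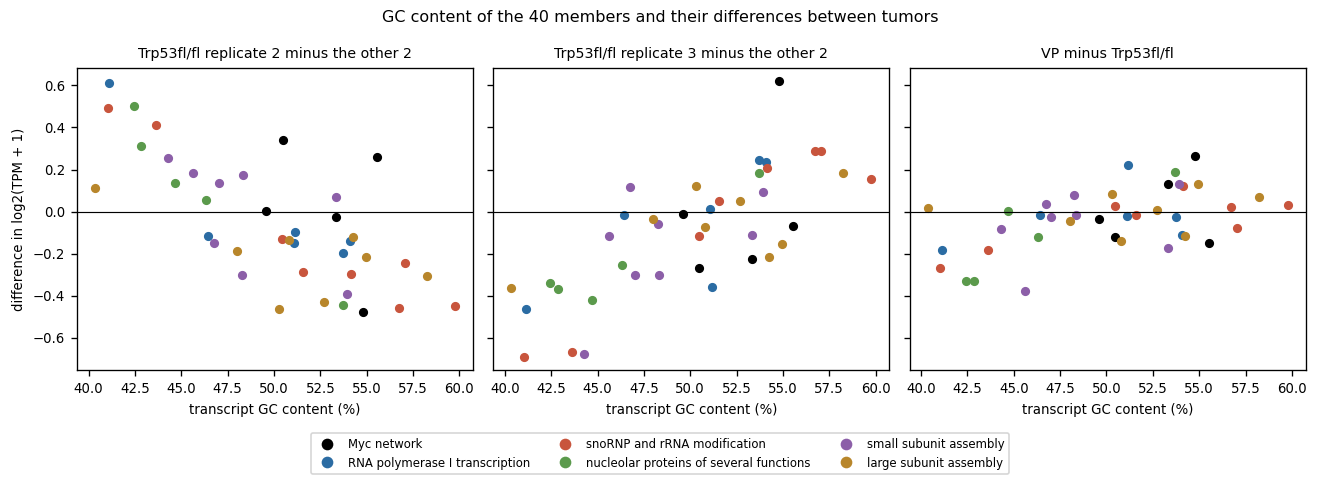
Transcript GC content of the 40 members in percent (horizontal) against their differences in log2(TPM + 1) (vertical), for Trp53fl/fl replicate 2 and replicate 3 against the mean of the other 2 tumors of the genotype and for VP minus Trp53fl/fl, 1 point per gene colored by role. The Pearson correlations are -0.74, 0.74 and 0.51, and the opposite signs of the first and second follow, with replicate 1 near 0, from centring on the same 3 tumors.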

How the data were processed

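Tumor RNA of 3 Trp53fl/fl and 3 VP replicates was analysed by RNA-seq. Each labelled replicate is called a tumor here, and the labels and methods do not state how many tumors or mice it held. Per the study's methods, total RNA with a RIN above 8 was used (1 µg), poly(A) RNA was selected and both ends of the fragments were sequenced. TPM per gene were deposited by the authors with 2 decimals and a separate column for each replicate. The submitters' processing notes name HISAT2, StringTie and mm9. The annotation release and the strand setting are not given in the sources used here. Several gene IDs, such as that of Rn18s, are absent from GENCODE M21, so no gene coordinates are printed. TPM hold no counts, so no count test was made and no counting error could be given. Nothing states whether library preparation was shared, and the p-values measure the spread between these tumors.

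From the deposited TPM, log2(TPM + 1) was tested with limma 3.58.1 in R 4.3.3 (empirical Bayes with trend, Benjamini-Hochberg over all 15117 genes that reached 1 TPM in 3 or more tumors). Other steps used numpy 2.4.6 and pandas 2.3.3. Data were simulated for this comparison over 15117 genes, with 200 genes changed and noise drawn independently for each gene. In them, 84% of genes changed 4-fold and 52% of those changed 2-fold were called, with 6 false calls among 142. GC content came from GENCODE M21 (97.5% of genes tested), and promoter windows from RefSeq (GRCm38.p6).

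The members and lists were chosen with earlier results of these data known. Named with every tumor's value were the Myc network, members without overlap or under 0.05 unadjusted, the highest member of each role, the 3 largest increases and decreases, and, from each wider list, up to 3 genes with the smallest unadjusted p-values and no overlap. Others (Nop58, Rrn3, Utp20, Wdr12, C1d, Tfrc, Snhg1, Snhg8, Ngp, Camp, Mki67) were chosen after their values were seen. Of the list symbols, 11 had no single row and were left out. Most of them are other names of genes tested in the same list, such as Utp11l for Utp11 and Wbscr22 for Bud23. Snhg4 and Snhg7 were left out under any name. Alternatives were another pseudocount, other filters, rescalings, epithelial centring, the replicate number as a block, no trend, array quality weights, a threshold of 0.1, each tumor left out in turn and, chosen after seeing the data, GC centring. Ncl, Gnl3, Nop56, Nop58 and Taf1d host snoRNAs and Npm1 has processed pseudogenes, and reads shared with them could not be separated.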

Additional observations from a re-analysis of the deposited data

How the results depend on the processing

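No member passed an adjusted p-value of 0.05 under any of the 19 alternatives, nor one of 0.1 with limma as used. With 3 tumors a genotype, 52% of 2-fold changes were called in the simulation with 200 changed genes and independent noise. The share in the tumors themselves is unknown, and the absence of calls does not show equal levels. Over all genes the 25 calls became 7 without an expression filter, 44 at a threshold of 0.1, 323 with array quality weights, 10 with the replicate block and 6 to 28 with 1 tumor left out (8 without Trp53fl/fl replicate 1, 10 without Trp53fl/fl replicate 3, 9 without VP replicate 1, 6 without VP replicate 2); their share higher in VP was 48.0%, and 59.1% with median-of-ratios rescaling, 73.7% with GC centring and 70.0% with the block. To look for pairing, each gene's genotype mean was subtracted from the log2 values. What remained correlated at 0.02, -0.05 and 0.02 between Trp53fl/fl and VP tumors of the same replicate number. These lie inside the range of -0.108 to 0.0952 for unlike numbers. This does not settle whether same-number tumors were handled together. Under the block Npm1 replaced Ltv1 as the single member under 0.05 unadjusted.

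The count of members under 0.05 unadjusted was 1, and 0 with median-of-ratios rescaling and GC centring, 3 with epithelial centring (7.5%, beside 21.6% of all genes), 6 with array quality weights (15.0%, beside 27.9% of all genes; Trp53fl/fl replicate 1 had a weight of 7.29) and 0 to 2 with 1 tumor left out: 0 without Trp53fl/fl replicate 1 or 2 or VP replicate 2, and 2 without Trp53fl/fl replicate 3. The members' median moved to -0.18 with epithelial centring, which shifts all genes, and lay between -0.06 and 0.03 with 1 tumor left out. Signs near 0 turned. Epithelial centring gave -0.0275 for Myc, -0.040 for Nhp2 and -0.077 for Pes1. Array quality weights gave -0.10 for Pes1 and -0.011 for Polr1b. Median-of-ratios rescaling gave 0.034 for Max and 0.044 for Tsr1, quantile normalization 0.0105 for Tsr1, and GC centring 0.044 for Max and 0.087 for Tsr1. With 1 tumor left out Max ran from -0.12 to 0.034, Tsr1 from -0.13 to 0.041 and Pes1 from -0.071 to 0.20. The cause of these turns was not tested. Ltv1 kept its sign throughout, from -0.54 to -0.19 (adjusted p from 0.0984 to 0.682). Trp53 and Rn18s kept their signs and lost the threshold in 6 and 8 alternatives, and Cdkn2a passed it with array quality weights.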
